A study of Homo sapiens with 4 samples.

Results

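The EGF receptor family and its ligands were followed in HCT116 cells, an established human colorectal carcinoma line, with and without knockdown of plakophilin3 (PKP3), a plaque protein of the desmosome. The set held 10 genes, taken by the gene name that the array files give each probe. The receptors were EGFR, ERBB2, ERBB3 and ERBB4, and the ligands were AREG, EREG, HBEGF, TGFA, BTC and EGF. They had 24 of the 50238 probes on the array that are not controls, 15 for the receptors and 9 for the ligands. The study asked which transcripts change in cells that lose PKP3, and 4 single color arrays were compared, 2 for the vector control clone (vec) and 2 for the knockdown clone (shpkp3-2). Both clones were HCT116 cells carrying a stably transfected plasmid, which encoded an shRNA against PKP3 in shpkp3-2. The labels describe growth in IMDM with 5 μg/ml of puromycin, while the methods of the study name blasticidin as the drug. Each arm was 1 clone, so that a difference between vec and shpkp3-2 may be one of clones as well as one of PKP3 level. The first array of each clone came from 1 RNA collection and the second from another. All 4 arrays were on 1 slide, with shpkp3-2 at the first and second positions and vec at the third and the fourth. The place on the slide and the clone therefore cannot be told apart.

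The EGF receptor family are tyrosine kinases of the cell surface, which pair with one another when a ligand binds. ERBB2 has no known ligand of its own and ERBB3 has a very weak kinase, so that both act mainly in mixed pairs. The ligands are made as membrane proteins and are cut free by proteases such as ADAM10 and ADAM17. Active receptors signal through RAS and ERK, through PI3K and AKT and through STAT proteins, and EGFR is a drug target in colorectal carcinoma.

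PKP3 itself gave signal intensities of 20850 and 22840 in vec against 3414 and 3078 in shpkp3-2. On the log2 scale, relative to the 75th percentile of its array, the level was 5.65 ± 0.37 (SD, n = 2) in vec against 3.11 ± 0.09 (SD, n = 2) in shpkp3-2. PKP3 fell by 2.54 on the log2 scale (SE 0.23), 5.81-fold, with an adjusted p of 0.0188 in limma. Its adjusted p was 0.135 where undetected probes were also tested and 0.145 with a weaker background flag, so that the call was lost under these settings. The direction of each later difference is that of shpkp3-2 against vec, from this one pair of clones.

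Over the 51538 spots that are not controls the intensities summed to between 115635392 and 130032824 per array, and 60.5% to 63.5% of spots were well above background. The log2 75th percentile used for scaling was 8.9620 on the first vec array and 8.5477 to 8.5742 on the others. The lowest intensity that the software called well above background was between 8.41 and 9.74, so that member probes near this level carry a bound more than a level. The log2 values of the first and second vec arrays had a correlation of 0.989 over 28883 probes, those of the shpkp3-2 arrays 0.995, and those between clones 0.985 to 0.991. The median SD was 0.20 in vec and 0.12 in shpkp3-2. Of 8 colorectal epithelium markers, 6 were well above background on all 4 arrays, EPCAM, KRT8, KRT18, KRT20, CDH1 and CDX2, while VIL1 was on 1 array and CDH17 on 0. Their summed intensity was 259032 to 273163 in vec and 252567 to 257627 in shpkp3-2. Markers of other cell types above background on all arrays were 2 of 6 for stratified epithelium, 1 of 6 for fibroblasts, 3 of 4 for leukocytes and 1 of 3 for endothelium, and 0 markers in these lists were called by limma. Their summed intensities were 26143 to 32116 in vec and 27953 to 29888 in shpkp3-2 for stratified epithelium, 119 to 202 and 126 to 145 for fibroblasts, 163 to 250 and 193 to 239 for leukocytes, and 62 to 111 and 73 to 93 for endothelium. The defining markers KRT5, PTPRC, PECAM1 and CDH5 were above background on 0 arrays. In such RNA from whole cultures, fewer cells that express a gene and less RNA per cell cannot be told apart.

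Several members are read by probes against different transcript records, and the first 30 of the 60 bases of the probes are shown for those on which the receptor results turn. The record NM_005228 is the full-length EGFR transcript, while NM_201283, NM_201284 and NM_201282 are shorter forms that lack the kinase part. The record NM_001982 is the full-length ERBB3 transcript and NM_001005915 a short secreted form, and U88357 is another ERBB3 record in the array design. Each sequence is written 5′ to 3′ as the array file gives it, and capitals mark bases shared with an overlapping probe of the same gene.
EGFR NM_005228: tatcaaggaagaaatggttcagaaaatatt
EGFR NM_201283, first probe: atgggaaatcagtgttttagagagagaact
EGFR NM_201283, second probe: ctgaaaaccgtaaaggaaatcacaggtttg
EGFR NM_201284, first probe: gCCAGCTGTGGGACAATTATCTGTGTCAAA
EGFR NM_201284, second probe: CCAGCTGTGGGACAATTATCTGTGTCAAAA
ERBB3 NM_001005915, first probe: GCTGGAGTCAGAGCTGGATCTGTTAACCGT
ERBB3 NM_001005915, second probe: gGCTGGAGTCAGAGCTGGATCTGTTAACCG
ERBB3 NM_001982: gctcttgactacttggaactaggctcttat
ERBB3 U88357: attggccaaaactttcctatgtggagctga
The paired probes of NM_201284 and those of NM_001005915 share 59 of their 60 bases and are shifted by 1 base, so that the probes of a pair are not independent of each other.

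None of the receptor and ligand probes passed the test between the clones, and most were within 1.5-fold. Of the 24 member probes, 14 were well above background on all 4 arrays, 5 on 1 to 3 arrays and 5 on 0 arrays. For a test with limma a probe had to pass the background flag on both arrays of either clone. This left 15 probes, which covered 8 of the 10 genes. ERBB4 and EGF had no probe above background on any array. By limma at an adjusted p under 0.05, 0 of the 15 probes were called, beside 0.390% of all 30512 probes tested and 0.246% that were called higher in shpkp3-2. At an unadjusted p under 0.05 there were 3, all with the higher level in shpkp3-2, beside 12.3% of all probes in either direction and 7.35% in that direction. The 3 were a short-form EGFR probe, a BTC probe and the U88357 probe of ERBB3. The last was detected on 1 of 2 vec arrays and passed the background filter only through shpkp3-2, which favors a higher level there, so that 2 of the 14 probes detected on all arrays remain. Over the 14 probes detected on all arrays the differences ran from -0.37 to 0.95 on the log2 scale with a median of 0.11, while the median over all probes tested was 0.05. In 11 of the 15 probes shpkp3-2 had the higher mean, beside 56.9% of all probes, and the count ranged from 8 of 15 without the first shpkp3-2 array to 11 of 15 over the scalings and arrays left out. With arrays centred on their median it was 9 of 15, or 60.0%, while 47.5% of all genes had the higher mean in shpkp3-2. The values of the clones did not overlap in 7 of 15 probes, beside 45.2% of all probes. Of these 7, 4 were higher and 3 lower in shpkp3-2, beside 27.2% and 18.0% of all probes. Without U88357, 10 of 14 probes had the higher mean in shpkp3-2 and 6 of 14 did not overlap. For a single probe, an exact permutation test of so few arrays cannot go below a two-sided p of 0.333, so that none is given.

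**Figure D1:**
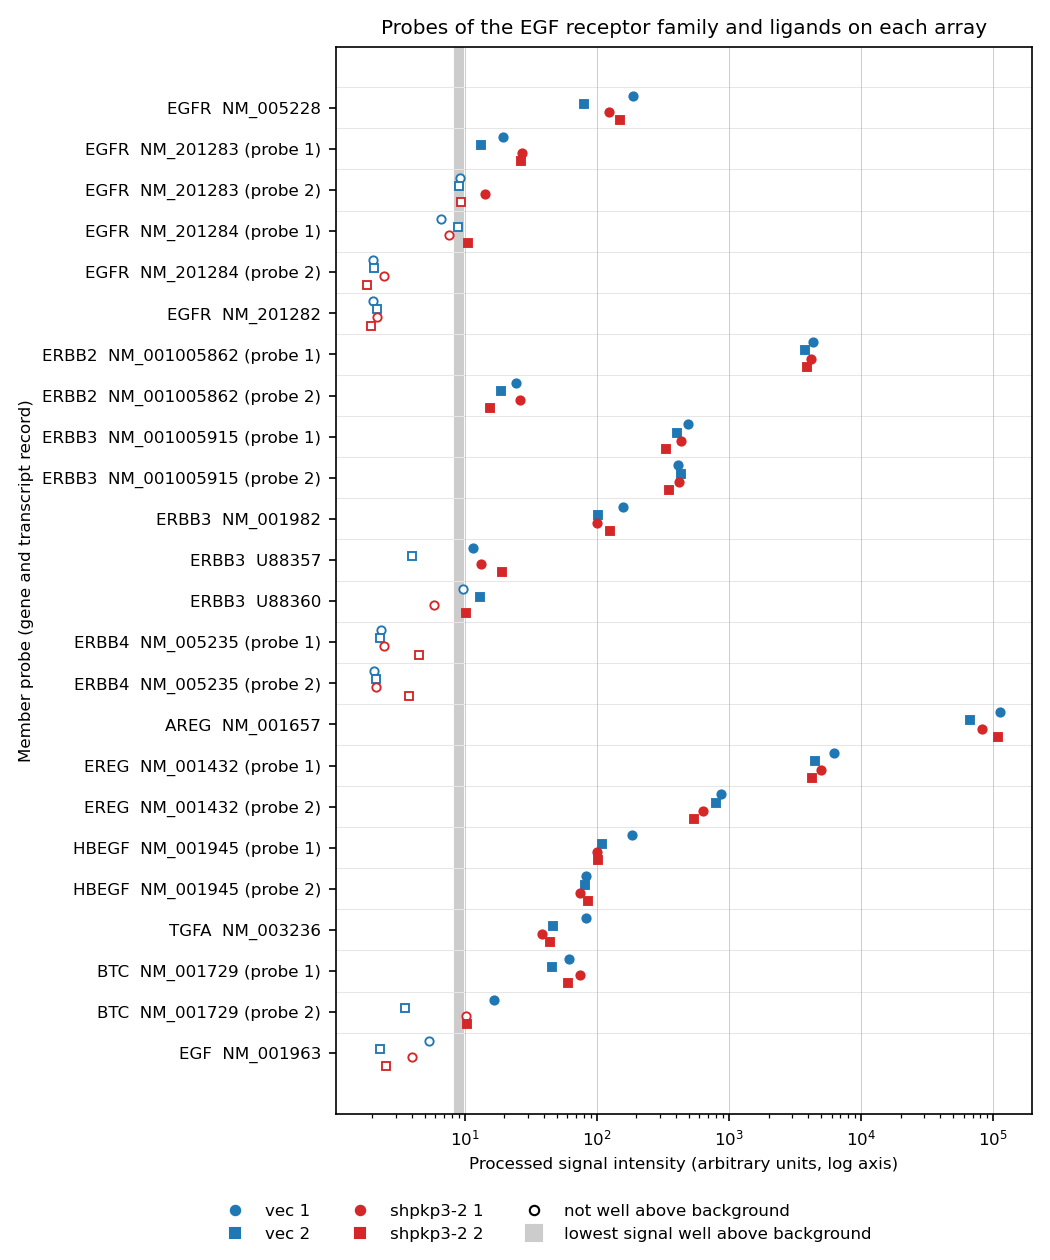
Signal intensity (horizontal axis, arbitrary units on a log axis) of each of the 24 member probes on each of the 4 arrays, blue for vec and red for shpkp3-2, with circles for the first RNA collection and squares for the second. Hollow points were not well above background and the grey band spans the lowest signals that were (8.41 to 9.74). The points of ERBB4 and EGF all lie to the left of the band, and those of AREG lie farthest to the right, at 66808 to 113741 with the colors interleaved.

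EGFR, the receptor of EGF, AREG and TGFA, had 6 probes, of which 2 were tested. The full-length probe (NM_005228) gave intensities of 189 and 80.3 in vec against 123 and 151 in shpkp3-2. In these intensities both shpkp3-2 arrays lay between the vec arrays, and on the normalized scale the clones overlapped too, with the second shpkp3-2 array highest and the second vec array lowest. The normalized log2 level was -1.82 ± 0.60 (SD, n = 2) in vec against -1.46 ± 0.22 (SD, n = 2) in shpkp3-2. The difference was 0.36 (SE 0.31) with an adjusted p of 0.667 in limma, and its 95% interval ran from 0.753-fold to 2.18-fold. Within the first RNA collection the difference was -0.22 and within the second 0.94. It was 0.78 without the first vec array and -0.07 without the second, so that the direction rested on a single vec array.

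The first probe of the short form NM_201283 gave intensities of 19.4 and 13.2 in vec against 27.1 and 26.5 in shpkp3-2. Both shpkp3-2 arrays lay above both vec arrays. All 4 values passed the flag for well above background, though not far above the lowest signals that passed it (8.41 to 9.74). The normalized log2 level was -4.76 ± 0.12 (SD, n = 2) in vec against -3.81 ± 0.01 (SD, n = 2) in shpkp3-2. The difference of 0.95 (SE 0.18), or 1.93-fold with a 95% interval from 1.43-fold to 2.61-fold, had an unadjusted p of 0.00175 and an adjusted p of 0.142 in limma and was not called. It was 0.87 and 1.03 in the separate RNA collections. With normexp background correction of the mean intensities, the difference was 0.36. This correction adds an offset of 50 to each value, which shrinks differences at such low signals. The adjusted p ranged from 0.0560 to 0.506 over 13 alternatives.

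The other short-form EGFR probes were near or below background, on at most 1 array above it. The second NM_201283 probe gave 9.19 and 9.12 in vec against 14.2 and 9.33 in shpkp3-2 and was above background on the first shpkp3-2 array only. It was not tested. Its difference was 1.03 within the first RNA collection and 0.06 within the second, beside 0.87 and 1.03 for the first probe. The first NM_201284 probe gave 6.59 and 8.86 in vec against 7.61 and 10.6 in shpkp3-2 and was above background on the second shpkp3-2 array only. Its overlapping partner stayed between 1.84 and 2.45 and the NM_201282 probe between 1.95 and 2.17, on 0 arrays above background.

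ERBB2, the partner receptor without a ligand of its own, had 2 probes for the record NM_001005862. The first gave intensities of 4334 and 3766 in vec against 4176 and 3935 in shpkp3-2. The raw intensities of the clones overlapped, while the normalized values did not, at 3.21 ± 0.13 (SD, n = 2) in vec against 3.43 ± 0.05 (SD, n = 2) in shpkp3-2. The difference was 0.22 (SE 0.18) with an adjusted p of 0.650 in limma and a 95% interval from 0.857-fold to 1.58-fold. The second probe gave 24.4 and 18.8 in vec against 26.4 and 15.5 in shpkp3-2, with a difference of 0.13 (SE 0.28, adjusted p 0.877 in limma) and overlapping clones. In the RefSeq gene order, ERBB2 lies 2 genes from GRB7, an adaptor that binds it, on chromosome 17. GRB7, named for this position, gave 841 and 572 in vec against 504 and 644 in shpkp3-2, with a difference of -0.07 and an adjusted p of 0.910 in limma, and between -0.26 and 0.11 with each array left out.

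ERBB3, the receptor of neuregulins that signals through PI3K, had 5 probes, of which 4 were tested. The full-length probe (NM_001982) gave intensities of 157 and 102 in vec against 101 and 127 in shpkp3-2, with a difference of 0.05 (SE 0.21, adjusted p 0.945 in limma). The overlapping probes of the secreted form gave 488 and 406, and 414 and 432, in vec against 431 and 335, and 419 and 354, in shpkp3-2. Their differences were -0.02 (SE 0.20, adjusted p 0.983 in limma) and 0.08 (SE 0.22, adjusted p 0.913 in limma). In all 3 probes the clones overlapped, and the 95% intervals together ran from 0.703-fold to 1.54-fold.

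The probe for U88357 was close to background and entered the test through shpkp3-2 alone, as it was above background on both shpkp3-2 arrays and on 1 of 2 vec arrays. Its intensities were 11.5 and 3.98 in vec against 13.4 and 19.1 in shpkp3-2. The second vec array, at 3.98, was below the lowest intensity called well above background, so that the vec mean and each fold drawn from it rest on a value that was not detected. The first vec array lay 0.61 below the first shpkp3-2 array on the normalized log2 scale. The level was -6.01 ± 0.81 (SD, n = 2) in vec against -4.56 ± 0.38 (SD, n = 2) in shpkp3-2, and the clones did not overlap. The fitted difference was 1.45 (SE 0.40) with an adjusted p of 0.267 in limma, and no fold is given for it. Against that vec mean the shpkp3-2 arrays lay at 1.18 and 1.72, past the 2-fold rule, which needs each shpkp3-2 array to differ 2-fold or more. No other member probe met this rule, which 1.74% of all probes met. With the RNA collection as a replicate block the adjusted p was 0.00511 in limma (SE 0.31), and the probe was called, beside 2.76% of all probes in that fit, with the same undetected vec value. The SE in that fit was 0.28 for PKP3 and 0.29 for EGFR NM_005228, so that it followed the spread of a single probe little. Its p therefore says little about how far the collections differ. With the first array of each clone paired with the second of the other, the adjusted p was 0.0987 in limma and the probe was not called. The differences within the collections were 0.61 and 2.29. The value moved with single arrays and with the background method, to 2.02 without the first vec array, 0.88 without the second and 0.33 with normexp correction. The fifth probe, for U88360, gave 9.67 and 13.0 in vec against 5.84 and 10.3 in shpkp3-2 and was above background on 1 array of each clone, so that it was not tested.

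ERBB4, the other neuregulin receptor, had 2 probes that were above background on 0 arrays. They gave 2.32 and 2.29, and 2.06 and 2.14, in vec against 2.47 and 4.54, and 2.13 and 3.77, in shpkp3-2. A level in either clone was not detectable at this signal over background, and no fold is given.

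**Figure D2:**
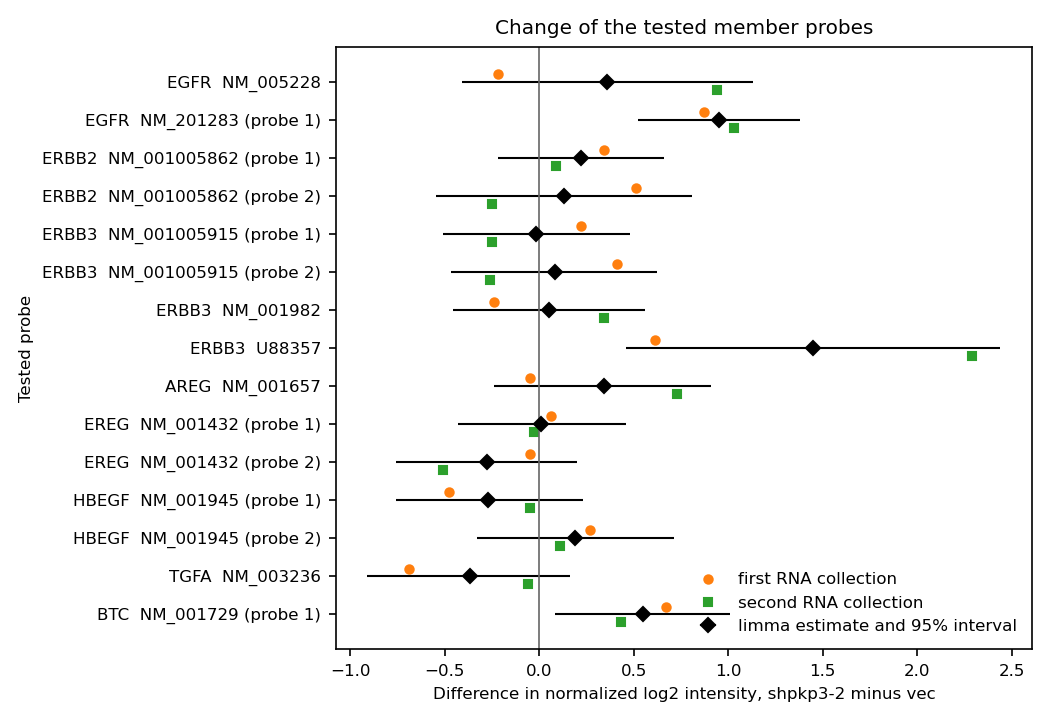
Difference in normalized log2 intensity between shpkp3-2 and vec (horizontal axis) for the 15 tested member probes, as the limma estimate with its 95% interval (black) and within the first (orange circles) and second (green squares) RNA collection. The intervals of 12 probes include 0, and those of EGFR NM_201283, ERBB3 U88357 and BTC lie above it before adjustment for the number of probes tested, with 1 vec value of U88357 not detected.

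Of the ligands, amphiregulin (AREG), a low-affinity EGFR ligand, gave intensities of 113741 and 66808 in vec against 83169 and 108705 in shpkp3-2. The clones overlapped in these intensities and on the normalized scale, where the second shpkp3-2 array was highest and the second vec array lowest. The normalized log2 level was 7.64 ± 0.27 (SD, n = 2) in vec against 7.98 ± 0.29 (SD, n = 2) in shpkp3-2, with a difference of 0.34 (SE 0.23) and an adjusted p of 0.596 in limma. The 95% interval ran from 0.849-fold to 1.88-fold, and the difference was -0.05 and 0.73 in the separate collections. It was 0.54 without the first shpkp3-2 array and 0.14 without the second.

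Epiregulin (EREG), a ligand of EGFR and ERBB4, had 2 probes. The first gave 6293 and 4469 in vec against 4979 and 4285 in shpkp3-2, with a difference of 0.01 (SE 0.18, adjusted p 0.985 in limma) and a 95% interval from 0.740-fold to 1.37-fold. The second gave 873 and 796 in vec against 640 and 550 in shpkp3-2, with a difference of -0.28 (SE 0.19, adjusted p 0.596 in limma). This difference was -0.41 without the first vec array and -0.15 without the second. In the second probe the shpkp3-2 values lay below both vec values, which was not so in the first. AREG, EREG and BTC lie side by side on chromosome 4 in the RefSeq gene order, after EPGN, a further EGFR ligand whose probe was above background on 0 arrays. Their brightest probes had differences of 0.34, 0.01 and 0.55.

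Heparin-binding EGF-like growth factor (HBEGF), which binds EGFR and ERBB4, had 2 probes with opposite signs. The first gave 186 and 109 in vec against 101 and 103 in shpkp3-2, a difference of -0.27 (SE 0.20, adjusted p 0.624 in limma). The second gave 82.3 and 81.5 in vec against 75.3 and 86.3 in shpkp3-2, a difference of 0.19 (SE 0.21, adjusted p 0.743 in limma). The clones did not overlap in the first probe and overlapped in the second, so that the gene has no settled direction here. Without the first vec array the differences were -0.08 and 0.00, and without the second -0.46 and 0.38. The probes begin with these bases, shown because their signs differ.
HBEGF NM_001945, first probe: cccatctgtagtaatttattgtctgtctac
HBEGF NM_001945, second probe: cccagtggaaaatcgcttatatacctatga

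Transforming growth factor alpha (TGFA), a ligand of EGFR alone, gave 82.5 and 46.7 in vec against 38.8 and 44.1 in shpkp3-2. The shpkp3-2 values lay below both vec values, the second vec array by a small margin. The normalized log2 level was -2.81 ± 0.31 (SD, n = 2) in vec against -3.19 ± 0.14 (SD, n = 2) in shpkp3-2. The difference was -0.37 (SE 0.22) with an adjusted p of 0.544 in limma and a 95% interval from 0.531-fold to 1.12-fold. It was -0.69 and -0.06 in the separate collections, -0.08 with normexp correction, -0.16 without the first vec array and -0.59 without the second.

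Betacellulin (BTC), a ligand of EGFR and ERBB4, gave 62.1 and 46.0 in vec against 75.1 and 60.7 in shpkp3-2 in its first probe. The raw intensities overlapped by a small margin, while on the normalized scale both shpkp3-2 arrays lay above both vec arrays. The level was -3.03 ± 0.03 (SD, n = 2) in vec against -2.48 ± 0.20 (SD, n = 2) in shpkp3-2. The difference was 0.55 (SE 0.19), or 1.46-fold with a 95% interval from 1.06-fold to 2.02-fold, with an unadjusted p of 0.0281 and an adjusted p of 0.344 in limma. It was 0.67 and 0.43 in the separate collections. The second BTC probe gave 16.7 and 3.53 in vec against 10.2 and 10.5 in shpkp3-2, was above background on 1 array of each clone and was not tested. EGF, the ligand that names the family, gave 5.36 and 2.28 in vec against 3.98 and 2.55 in shpkp3-2 and was above background on 0 arrays.

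The other genes of the pathway were taken from a list of 75 genes in 8 roles, each read by its brightest probe. Of these, 74 had a probe and 68 were tested, of which 0 were called by limma, beside 0.453% of all 14568 genes tested in the same way. With the replicate block 0 were called as well, beside 2.63% of all genes. At an unadjusted p under 0.05 there were 12, with 5 higher and 7 lower in shpkp3-2, beside 11.5% of all genes. In 47 of the 68 genes the mean was lower in shpkp3-2, where 57.4% of all genes had the higher mean in shpkp3-2. The median difference was -0.13, beside 0.05 over all probes tested. This balance rested on the first vec array, as without it 34 genes were lower and 34 higher with a median of -0.01. In that setting 53.0% of all genes had the higher mean. None of the 68 genes met the 2-fold rule, which 1.83% of all genes met.

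**Figure D3:**
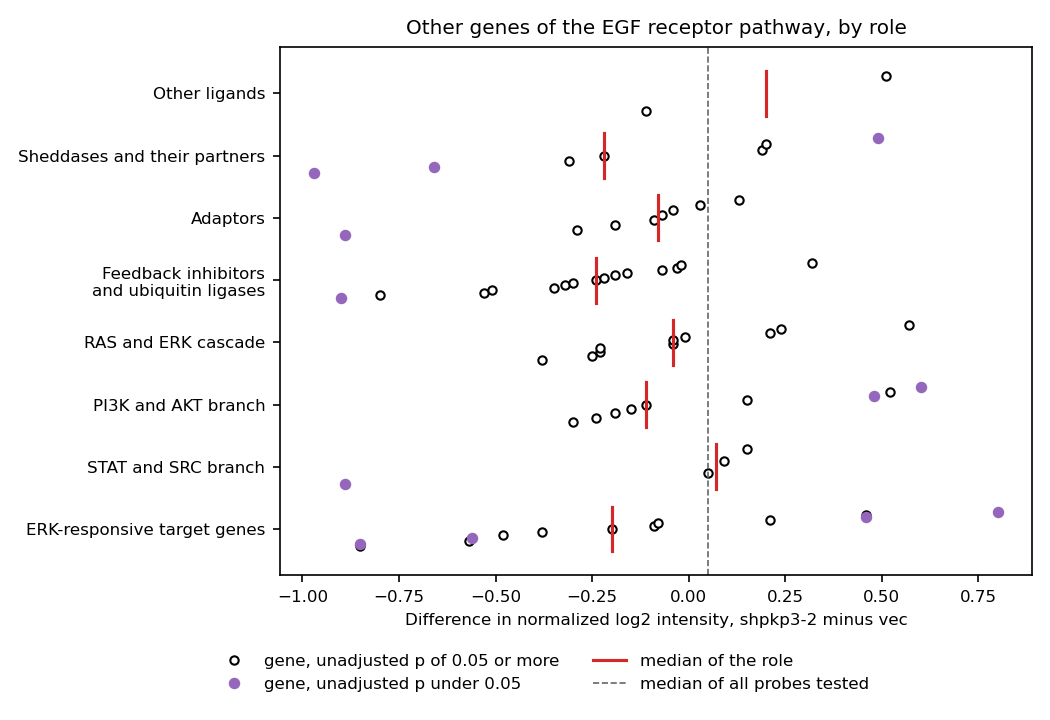
Difference in normalized log2 intensity between shpkp3-2 and vec (horizontal axis) for the brightest probe of each of the 68 tested pathway genes, by role. Red bars are the medians of the roles, purple points have an unadjusted p under 0.05 (12 genes, of which 0 were called after adjustment) and the dashed line is the median of all probes tested (0.05). In the feedback role 14 of 15 points lie below 0.

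Among the other ligands, neuregulin 4 (NRG4), an ERBB4 ligand, gave 27.0 and 27.6 in vec against 32.3 and 34.7 in shpkp3-2, a difference of 0.51 (adjusted p 0.416 in limma). This difference was 0.30 without the first vec array and 0.72 without the second. NRG2 gave 149 and 133 in vec against 125 and 101 in shpkp3-2, a difference of -0.11 (adjusted p 0.855 in limma). NRG1, NRG3 and EPGN were not tested, as they were above background on at most 1 array.

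The sheddases that free the ligands and their partners had 7 of 8 genes tested, with 1 higher and 2 lower in shpkp3-2 at an unadjusted p under 0.05, beside 11.5% of all genes in either direction. TIMP3, an inhibitor of ADAM17 and other metalloproteases, gave intensities of 233 and 153 in vec against 70.8 and 98.2 in shpkp3-2. The shpkp3-2 values lay below both vec values, by -1.32 and -0.62 in the separate collections. Its difference was -0.97 (SE 0.23), or 1.96-fold lower, with an unadjusted p of 0.00572 and an adjusted p of 0.216 in limma. ADAM17, the main sheddase of AREG, EREG, HBEGF and TGFA, was chosen after its values were seen, as its 3 probes gave like differences. These differences of -0.66, -0.74 and -0.75 had an adjusted p of 0.275, 0.213 and 0.306 in limma. Its brightest probe gave 1612 and 1034 in vec against 679 and 733 in shpkp3-2, without overlap. RHBDF2, which carries ADAM17 to the cell surface, gave 4966 and 4373 in vec against 5840 and 5478 in shpkp3-2. Its difference was 0.49 (adjusted p 0.371 in limma), and its other probes gave 0.45 and 0.35. ADAM10, the main sheddase of EGF and BTC, gave 645 and 346 in vec against 428 and 511 in shpkp3-2, with a difference of 0.20 (adjusted p 0.763 in limma) that was -0.06 without the second vec array, and was also chosen after its values were seen.

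Of the adaptors that couple the receptors to RAS and PI3K, 8 of 10 were tested and 6 had the lower mean in shpkp3-2, beside 42.6% of all genes, with a median of -0.08. The median was -0.03 with 5 of 8 lower without the first vec array, beside 47.0% of all genes. It was -0.29 with 8 of 9 lower without the second, beside 42.3% of all genes. GAB2, a docking protein for PI3K and SHP2, gave 213 and 131 in vec against 78.3 and 77.4 in shpkp3-2, and the clones did not overlap. Its difference was -0.89 (SE 0.19), or 1.85-fold lower, with an adjusted p of 0.183 in limma. CRK, with the largest positive difference in this role among probes above background on all arrays, had a difference of 0.03 (adjusted p 0.965 in limma).

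The feedback inhibitors and ubiquitin ligases, which restrain active receptors and ERK signaling, had all 15 genes tested. In 14 of the 15 genes the mean was lower in shpkp3-2, with a median of -0.24, while 42.6% of all genes had the lower mean in shpkp3-2. The count was 10 of 15 with a median of -0.08 without the first vec array, 15 of 15 without the second, and 11 of 15 with normexp correction. Of all genes, 47.0%, 42.3% and 38.8% had the lower mean in these settings. The first vec array had the highest normalized level of the 4 arrays in 13 of the 15 genes, and its part in the count was not tested beyond leaving it out. SPRED2, an inhibitor of ERK signaling, gave 322 and 117 in vec against 81.9 and 98.5 in shpkp3-2, a difference of -0.90 (SE 0.36) with an adjusted p of 0.402 in limma. It was -1.58 and -0.22 in the separate collections, and -0.37 without the first vec array. ERRFI1 (MIG6), which binds and blocks the EGFR kinase, was the 1 gene with a higher mean in shpkp3-2. It gave 62315 and 29463 in vec against 39058 and 54888 in shpkp3-2, a difference of 0.32 (adjusted p 0.691 in limma) with overlap, and -0.02 without the second vec array.

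The RAS and ERK cascade had all 10 genes tested, 0 with an unadjusted p under 0.05, and a median of -0.04. HRAS gave 1492 and 2766 in vec against 2912 and 2317 in shpkp3-2, a difference of 0.57 (adjusted p 0.614 in limma) that was -0.07 without the first vec array. The PI3K and AKT branch had 9 genes tested, 4 with the higher mean in shpkp3-2, beside 57.4% of all genes, and a median of -0.11. Without the first vec array 8 of 9 had the higher mean with a median of 0.24, beside 53.0% of all genes. With normexp correction it was 6 of 9 with a median of 0.04, beside 61.2% of all genes. PIK3R1, the regulatory subunit of PI3K, gave 68.6 and 73.8 in vec against 91.6 and 94.5 in shpkp3-2, a difference of 0.60 (adjusted p 0.373 in limma). This difference was 0.35 without the first vec array and 0.85 without the second. PIK3CA, a catalytic subunit, gave 382 and 137 in vec against 149 and 172 in shpkp3-2, a difference of -0.30 (adjusted p 0.761 in limma) that was 0.24 without the first vec array. In the STAT and SRC branch, with 4 of 5 genes tested, SRC gave 517 and 356 in vec against 222 and 180 in shpkp3-2. The SRC difference was -0.89 (SE 0.19), or 1.85-fold lower, with an adjusted p of 0.183 in limma, and it was -0.82 and -0.96 in the separate collections. STAT3 had a difference of 0.15 (adjusted p 0.804 in limma).

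The ERK-responsive target genes, which are transcribed soon after receptor activation, had 13 genes tested. Of these, 9 had the lower mean in shpkp3-2, beside 42.6% of all genes, and 4 the higher. Their median was -0.20, and 0.01 without the first vec array. At an unadjusted p under 0.05 there were 2 in each direction, beside 11.5% of all genes in either direction. DUSP6, a phosphatase of ERK, gave 15304 and 8465 in vec against 5072 and 5845 in shpkp3-2, a difference of -0.85 (SE 0.23) with an adjusted p of 0.250 in limma. DUSP4, another phosphatase of the same family, gave 4660 and 3039 in vec against 5051 and 6303 in shpkp3-2, a difference of 0.80 (SE 0.21) with an adjusted p of 0.240 in limma. In both phosphatases the clones did not overlap, and the signs of the differences were opposite.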

How the data were processed

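Total RNA was measured on Agilent arrays with 1 dye, Cy3. The authors deposited the Feature Extraction output of each array, whose processed signal is an intensity on a linear scale after background subtraction and detrending, with no scaling between arrays. The submitters' processing notes name version 9.1, and the file header names version 10.7.3.1. A catalogue array is named in the methods, whereas the files hold a custom design built on hg18, so no coordinates are given. Gene order was taken from RefSeq (GRCh38.p14).

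The 75th percentile over spots that are not controls was subtracted from log2 intensities. Spots with the outlier flag (26 to 39 per array) were left out, and 0 spots were saturated. Probes on the array with values on all 4 arrays numbered 50117. Of the 50238 probes, 28595 matched a RefSeq gene by accession, 2998 by symbol and 1176 by older symbol. The other 17469 matched none and were left out of the counts over genes. The 30512 probes that passed the background flag on both arrays of either clone were fitted with lmFit and eBayes of limma 3.58.1 (R 4.3.3), with Benjamini-Hochberg adjustment at 0.05. The 95% intervals are per probe. The brightest probe represents a gene of the pathway list. Precision is limited by the number of arrays, and p-values measure the spread between RNA collections of 1 clone per arm. The analysis was tested on simulated data.

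Named were all members, PKP3, and in each role the largest rise and fall among probes above background on all arrays. Of these, 1 gene is not reported here. The members and lists were chosen with earlier results of these data known. Same-numbered arrays shared an RNA collection, per the series' design text. Over all probes tested, their deviations from the clone means correlated at -0.199. The comparison was made without this pairing, and the block is an alternative. Other alternatives were normexp correction (offset 50), quantile normalization, median centring, other detection filters, a trended and robust prior, a 1.5-fold threshold, the mean over a gene's probes and each array left out in turn. Python 3.11.15, numpy 2.4.6, pandas 2.3.3 and matplotlib 3.10.9 were used.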

Additional observations from a re-analysis of the deposited data

How the results depend on the processing

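The member count of 0 probes called by limma was 1 with the RNA collections as a replicate block, the ERBB3 probe for U88357, whose 1.45 then had an adjusted p of 0.00511, and 0 under each other alternative run. That probe passed the background filter only through shpkp3-2, 1 of its 2 vec values was not detected, and its difference was 0.33 with normexp correction. The replicate block changed no other call among the named results, and the pathway list had 0 genes called under all alternatives run. The SE of the block fit was 0.31 for the U88357 probe and 0.28 for PKP3, so that it followed the spread of a single probe little. A crossed pairing, chosen after seeing the data because the correlation of same-numbered arrays was -0.199, called 104 probes in all, 0 of the members and 0 of the pathway list. Over all probes, the 119 called were 74 with quantile normalization, 18 without a detection filter, 46 with probes above background on all arrays, 2 with the weaker background flag, 841 with the replicate block, and 262 to 313 with each array left out. The 531 probes past 2-fold were 2100 at 1.5-fold, 159 with normexp correction, and 775 to 1499 with each array left out. PKP3 kept -2.54 without a detection filter (adjusted p 0.135) and with the weaker flag (adjusted p 0.145), and was then not called. The U88357 probe could not be tested among probes above background on all arrays. Leaving out an array leaves 1 for that clone, and its spread is then taken from the other clone.

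Some single-gene differences changed sign, and the cause was not tested. The 31 such results, each under 12 or 13 alternatives, made 402 cases in all. Of the 31 results, 12 changed sign at least once, in 23 cases, and 1 gained a call. With each array left out, the range was -0.07 to 0.78 for EGFR NM_005228, -0.25 to 0.51 for the second ERBB2 probe, -0.19 to 0.16 and -0.15 to 0.30 for the NM_001005915 probes of ERBB3, -0.13 to 0.22 for ERBB3 NM_001982, and -0.09 to 0.11 for the first EREG probe. The single values that changed sign were -0.07 for EGFR, -0.25 for ERBB2, 0.05 and 0.16, and -0.15 and -0.04, for ERBB3 NM_001005915, -0.07 and -0.13 for ERBB3 NM_001982, and -0.04 and -0.09 for EREG. Median centring, which moves all probes by the same amount and so turns values near 0, gave -0.02 for ERBB3 NM_001982, -0.06 for EREG and -0.04 for CRK, and EREG was -0.04 with normexp correction and -0.07 with quantile normalization. In the pathway list, an array left out gave 0.00 and 0.04 for NRG2, -0.04 and -0.03 for CRK, -0.02 for ERRFI1, -0.07 for HRAS, 0.24 for PIK3CA and -0.08 for STAT3. The ranges were -0.25 to 0.04 for NRG2, -0.04 to 0.09 for CRK, -0.02 to 0.67 for ERRFI1, -0.07 to 1.21 for HRAS, -0.85 to 0.24 for PIK3CA and -0.08 to 0.38 for STAT3. Signals at or below background limit the 10 member probes that were not above it on all 4 arrays.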
